A study of Mus musculus with 33 samples.

Results

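Mini-colon AKP lines are mouse colon organoid lines established again from mini-colons, microfluidic tubes of living colon epithelium, after tumours had grown in them. The data were the 15 count files titled Mini-colon AKP #i to #v, 3 from each of 5 lines, read against the 6 files titled Organoid AKP, out of 33 libraries in all. What was described was the shift that the 5 lines had in common. Each line was set against organoid AKP libraries that carried the same library code letter, E for lines #i, #ii and #iii and F for lines #iv and #v, and each line weighed the same. The study derived its lines from mini-colons in which crypt or lumen tumours were enriched. It names line #i lumen-enriched and line #v crypt-enriched, and these lines also differ in letter. The part of tumour origin in the differences between lines or letters was not tested. A gene was counted as shared if the mean of the 5 line differences passed the test and all 5 differences had 1 sign.

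The series asked how tumour lines made in mini-colons compare with organoids recombined in conventional culture and with lines from mouse tumours. Mini-colon AKP and organoid AKP cells had the same engineered alleles, among them Apc fl/fl and Trp53 fl/fl, and in both groups these were recombined by OptoCre, a lentiviral Cre switched on by doxycycline and blue light. In vivo AKP lines came from colon tumours of mice in which Cdx2-creERT2, a tamoxifen-dependent Cre driven by an intestinal promoter, had recombined the same alleles. Controls were AKP organoids that had not been induced. All lines were sequenced as organoids after growth factors had been withdrawn, by QuantSeq, which reads the 3′ ends of mRNAs. Per the study's methods, bulk RNA-seq used independent sets of samples, and replicates are described as cultures, so that p-values measure the spread between cultures of a line. The sources used here do not state whether a line was 1 clone. They also do not say what the letters stand for, although organoid AKP libraries of the letters differed at 4197 genes, and each line was measured under 1 letter.

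APC restrains the WNT pathway by marking β-catenin for destruction, and p53 halts or kills damaged cells. Loss of both is common in colorectal tumours. Cells that share these lesions can still differ in how fast they pass through the cell cycle, in how much protein they make and destroy, and in which signals they send and receive.

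Mini-colon AKP libraries held 2829223 to 8256526 counts and organoid AKP libraries 2751409 to 7232715. Levels are given as CPM, counts set relative to the library's total, after TMM scaling, which removes differences in overall composition between libraries, and differences are log2 fold changes, mini-colon minus organoid. Log2(CPM + 1) values of libraries from the same line and letter correlated at r of 0.981 to 0.993 across genes, which are not independent replicates. Summed epithelial markers were 2881 to 3446 CPM in mini-colon AKP libraries and 3072 to 3555 CPM in organoid AKP libraries. Summed markers of fibroblasts and muscle (6.72 to 135.4 against 6.80 to 25.7 CPM), immune cells (3.41 to 18.2 against 7.42 to 15 CPM) and endothelium (3.79 to 71.0 against 5.10 to 15.1 CPM) were far lower in both groups. Only 2 of 15 fibroblast and muscle, 3 of 18 immune and 5 of 10 endothelial markers passed the filter on low values. The highest sums, in mini-colon libraries, exceeded the organoid range, and their part in the results was not tested.

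The engineered genes Apc and Trp53 were examined first. Apc averaged 99.3 CPM in mini-colon AKP and 103.1 CPM in organoid AKP, a difference of −0.06 ± 0.05 (SE) on the log2 scale (adjusted p = 0.496, edgeR's quasi-likelihood test with Benjamini-Hochberg adjustment, used throughout). Trp53 was low in both, with 2.01 to 11.7 CPM in letter E mini-colon libraries against 1.30, 1.36 and 3.77 CPM in organoids of that letter, and 1.97 to 3.93 CPM in letter F mini-colon libraries against 1.07, 1.40 and 1.73 CPM. The groups overlapped. The Trp53 mean difference of 0.91 ± 0.24 passed the test (adjusted p = 0.00428), but it was uneven, at 2.15 in line #iii and 0.01 in line #ii, and without line #iii it was 0.60 (adjusted p = 0.0892). In vivo AKP and control libraries held 19.2 to 34.1 and 14.4 to 19.1 CPM of Trp53. Reads from the 3′ ends of these genes do not show which part was deleted, and so do not check the deletions.

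Of 12664 genes tested, 793 were higher in all 5 mini-colon lines (6.26% of genes) and 833 were lower in all 5 (6.58%). A further 1385 genes passed the test on the mean but did not have 1 sign in every line. The shared shift was mostly small, with a median of 0.32 among the genes that were higher and −0.48 among those that were lower, and 35 higher and 40 lower genes reached 1 log2 unit in every line. When the difference of each line was tested by itself in the same fit, 33 genes were higher in all 5 tests (0.261%) and 53 were lower in all 5 (0.419%). Lines of a letter were set against the same 3 organoid AKP libraries, so these 5 tests are not independent of each other. Every mini-colon library lay above all organoid libraries of its letter at 74 genes (0.584%) and below them at 129 (1.02%). The 33 genes became 19 without organoid AKP replicate 2 or 4, 20 without line #i replicate 1 and 21 without organoid AKP replicate 5 or line #i replicate 2. These tests treat the libraries of a line as replicates. With the counts of a line summed to 1 value, edgeR's test passed 0 genes as higher and 4 as lower (Cryba4, Ngfr, Dlx3 and Dapl1), while 383 higher and 435 lower genes of 1 sign had an unadjusted p under 0.05. The first 3 were also shared with libraries as replicates. Dapl1 was not (adjusted p = 0.129), and it had 392 counts in letter F organoids but 1 in letter E organoids, too few to show a fall in letter E. At the threshold, Sulf2 and Taf2 (adjusted p = 0.0499 each) were the last inside it, and Lpo (0.0505) and Chsy1 (0.0508) the first outside.

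The 2 letters share no library, so lines #i to #iii and lines #iv and #v gave separate comparisons at 11796 genes. In letter E, 895 genes were higher (7.59%) and 1045 lower (8.86%), and in letter F, 1473 were higher (12.5%) and 1466 lower (12.4%). Over the 11796 genes, 194 were higher in both letters and 275 lower in both. Of the letter E higher genes, 21.7% were also higher in letter F and 10.7% were lower there. These shares stand beside the 12.5% and 12.4% of all genes. Of the letter E lower genes, 26.3% were lower in letter F and 12.1% were higher. As shares of the letter F lists, 13.2% of higher and 18.8% of lower genes were called the same way in letter E. The size of the shift varied between lines even where its sign did not. The 5 lines differed in their shift at 45.6% of all genes, at 44.4% of shared higher genes and at 48% of shared lower genes.

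**Figure D1:**
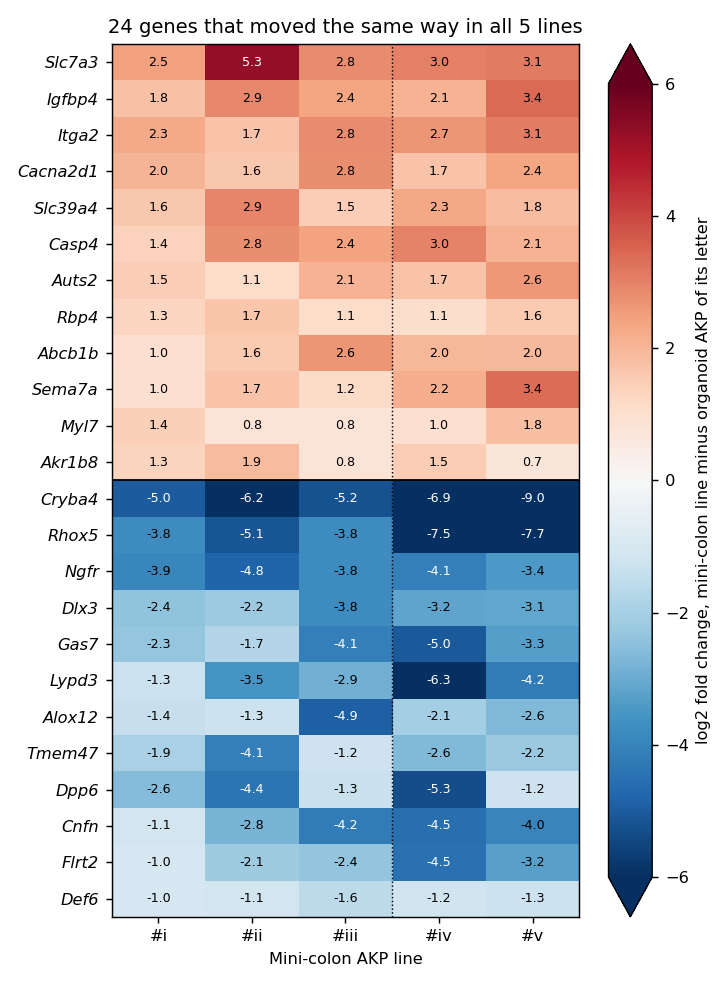
Log2 fold change of each mini-colon AKP line (columns, #i to #v) against organoid AKP of the same letter for the 24 genes named by rule, 12 higher and 12 lower. The dotted line separates letter E lines on the left from letter F lines on the right. Every cell of a gene has 1 sign, as the rule required. Slc7a3 in line #ii (5.26) is the highest value and Cryba4 in line #v (−8.99) the lowest.

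The 12 higher genes named by rule included several of the cell surface. The rule took only genes of 1 sign in all 5 lines whose libraries did not overlap within either letter. Neither trait is therefore a result about the genes it named. Slc7a3, a transporter of arginine and lysine, was at 4.42 CPM in the lowest letter E mini-colon library, 7.59 in the median and 45.5 in the highest, against 0.325, 0.681 and 2.16 CPM in organoids of that letter. In letter F it was at 6.20, 9.22 and 11.2 CPM in mini-colon libraries, against 0.559, 0.712 and 1.90 CPM in organoids. The 3 libraries of line #ii, at 42.5 to 45.5 CPM, were far above the other lines. The mean difference of Slc7a3 was 3.34 ± 0.24 (adjusted p = 3.66e-15), from 2.46 in line #i to 5.26 in line #ii.

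Slc39a4 encodes ZIP4, the zinc importer of the intestinal surface. Its levels were 70.6, 84.2 and 228.3 CPM (lowest, median and highest) in letter E mini-colon libraries against 18.7, 30.7 and 31.5 CPM in organoids, and 64.3, 82.6 and 97.1 CPM in letter F mini-colon libraries against 17.3, 18.6 and 20.9 CPM. The mean difference was 2.03 ± 0.11 (adjusted p = 6.85e-15). Mini-colon AKP lines were nearer to in vivo AKP (149.1 to 236.6 CPM) and control organoids (116.5 to 296.4 CPM) than organoid AKP was. Of 14 metallothionein and zinc transporter genes, no other was shared and higher, and Mt4, a metallothionein of stratified epithelia, was shared and lower. Mt4 had 1, 2 and 1 counts in lines #i to #iii against 6 in letter E organoids, too few to show a fall in that letter, and 0 and 10 counts in lines #iv and #v against 43 in letter F organoids.

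Igfbp4, which captures insulin-like growth factors outside the cell, was at 2.34, 4.59 and 7.21 CPM in letter E mini-colon libraries against 0.270, 0.975 and 1.36 CPM in organoids, and at 3.37, 7.84 and 15.6 CPM in letter F mini-colon libraries against 0.345, 1.40 and 1.78 CPM. The mean difference of Igfbp4 was 2.5 ± 0.30 (adjusted p = 8e-09). Its level in mini-colon lines remained low beside the 438.7 to 779.3 CPM of in vivo AKP libraries, while controls averaged 0.163 CPM. The other shared members of the insulin-like growth factor list, 3 of 14 genes tested, were lower, beside 6.58% over all genes. Igf2bp2, an RNA-binding protein of that family's mRNAs, was at 50.5 to 109.9 CPM in letter E mini-colon libraries against 145.0 to 158.9 CPM in organoids, and at 124.6 to 151.4 CPM in letter F against 217.7 to 231.6 CPM (−0.85 ± 0.05, adjusted p = 6.19e-19). Irs1 (−0.90 ± 0.09, adjusted p = 1.88e-10) and Irs2 (−0.38 ± 0.10, adjusted p = 0.00584), adaptors below the insulin and insulin-like growth factor receptors, were lower as well.

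Among adhesion and guidance proteins, Itga2, the integrin α2 chain of a collagen receptor, averaged 8.43 CPM in mini-colon AKP and 1.34 CPM in organoid AKP (2.51 ± 0.24, adjusted p = 1.77e-11). Sema7a, a membrane-anchored semaphorin, averaged 20.6 and 4.49 CPM (1.87 ± 0.16, adjusted p = 3.62e-13), and its shift ran from 0.95 in line #i to 3.37 in line #v. Cldn4, a tight junction claudin, was at 94.3 to 164.9 CPM in letter E mini-colon libraries against 77.6 to 88.7 CPM in organoids, and at 246.3 to 302.9 CPM in letter F against 167.8 to 178.3 CPM. Its shift was even, between 0.62 and 0.87 in the 5 lines (0.74 ± 0.07, adjusted p = 2.37e-09), and the lines were not shown to differ (adjusted p = 0.451). Itga2 and Cldn4 were each called in every line, whereas few others of their lists were shared: 2 of 28 integrin, laminin and collagen genes were higher and 4 lower, and 1 of 22 tight junction genes was higher and 0 lower. Over all genes the shares were 6.26% higher and 6.58% lower.

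The other genes of the 12 had varied roles. Casp4, the sensor of bacterial lipopolysaccharide in the cytosol, averaged 5.49 CPM in mini-colon AKP and 1.0 CPM in organoid AKP (2.32 ± 0.27). Abcb1b, a drug efflux pump, had a mean difference of 1.83 ± 0.23 and Akr1b8, an aldo-keto reductase that detoxifies aldehydes, of 1.26 ± 0.11, with 33.8 CPM in mini-colon AKP and 13.5 CPM in organoid AKP. Cacna2d1, an auxiliary calcium channel subunit (2.10 ± 0.26), Auts2, a partner of Polycomb proteins (1.80 ± 0.16), Rbp4, a retinol carrier (1.34 ± 0.24), and Myl7, a myosin light chain (1.18 ± 0.14), completed the set. All had adjusted p-values of 2.21e-05 or less. Against the control organoids, in vivo AKP lines had lower levels of Akr1b8 (−5.58), Myl7 (−4.15), Casp4 (−3.28), Itga2 (−2.99) and Auts2 (−2.78). They had higher levels of Igfbp4 (11.4), Sema7a (6.03) and Rbp4 (4.14). Organoid AKP is another baseline. In median CPM, in vivo AKP was above organoid AKP at Casp4 (4.41 against 0.701), Auts2 (12.2 against 3.63) and Itga2 (5.01 against 1.38). It was below organoid AKP at Akr1b8 (3.43 against 13.3) and Myl7 (2.31 against 5.22).

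**Figure D2:**
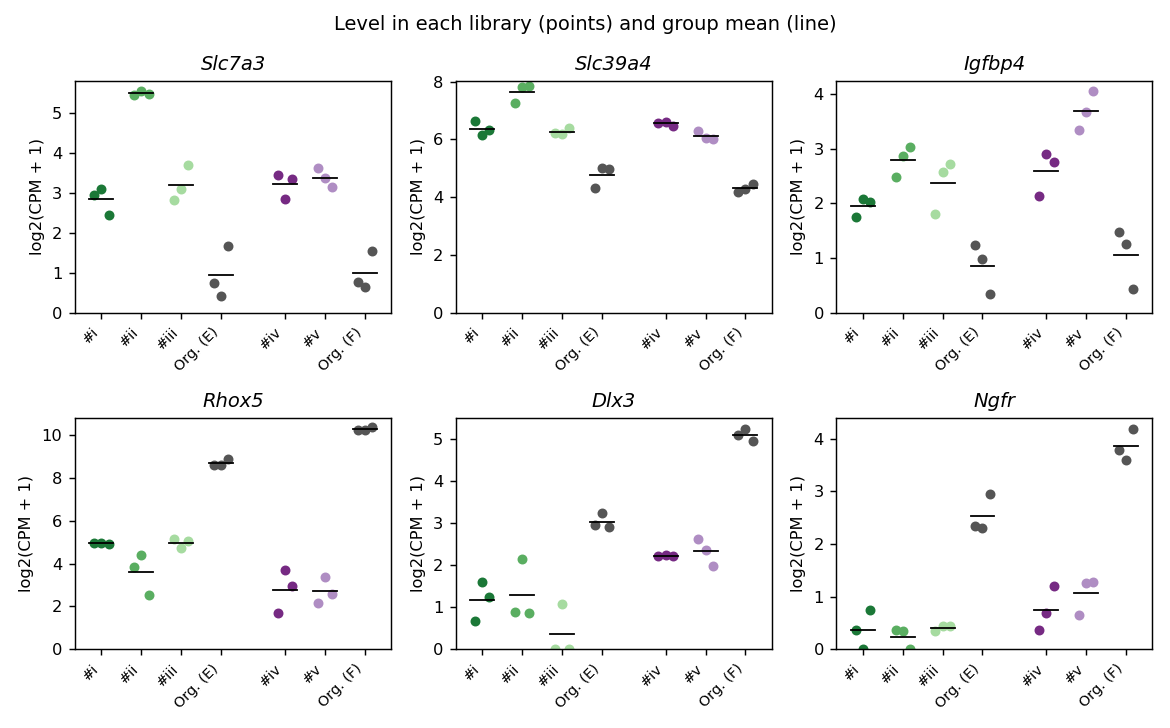
Level of 3 higher and 3 lower genes in each library, as log2(CPM + 1), with points for libraries and lines for group means of mini-colon AKP #i to #v and of organoid AKP of letters E and F. In each panel no mini-colon library reaches the organoid libraries of its letter, which the naming rule required. Rhox5 and Dlx3 are higher in letter F organoids than in letter E organoids.

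The lower genes moved further. Rhox5, an X-linked homeobox gene of the reproductive tract, was at 4.75, 29.3 and 34.5 CPM in letter E mini-colon libraries, against 386.9, 392.8 and 465.8 CPM in organoids. In letter F it was at 2.25, 5.84 and 11.8 CPM in mini-colon libraries, against 1205, 1207 and 1330 CPM in organoids. The mean difference of Rhox5 was −5.57 ± 0.16 (adjusted p = 5.59e-13), and in vivo AKP libraries held 1.92 to 5.96 CPM and control organoids 0.700 to 10.1 CPM. Lines #iv and #v lay near these levels, with means of 6.94 and 5.92 CPM, while lines #i, #ii and #iii were above them, with means of 29.8, 12.7 and 30.8 CPM. Organoid AKP was far above every other group at this gene.

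Cryba4, a lens crystallin, had 2, 1 and 2 counts in all libraries of lines #i, #ii and #iii against 72 counts in letter E organoids, and 1 and 0 counts in lines #iv and #v against 269 in letter F organoids. Scaled for depth, it was at least 88.6-fold lower in line #v, by the limit of 3 counts that a count of 0 allows over the line, and the ratio in line #iv was 153.7 (95% exact interval 27.4 to 6094.5, which covers counting error only). Control libraries were at 0 for Cryba4 and in vivo AKP libraries at 0 to 0.384 CPM, so that it was again detected in organoid AKP above the other groups.

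Ngfr, the p75 neurotrophin receptor, was at 0 to 0.681 CPM in letter E mini-colon libraries against 3.90, 4.08 and 6.74 CPM in organoids, and at 0.281 to 1.43 CPM in letter F against 11.1, 12.8 and 17.2 CPM (−4.01 ± 0.30, adjusted p = 3.68e-15). Here in vivo AKP sided with organoid AKP, with 11.1 to 20.8 CPM against 0 in every control library. Dlx3, a homeobox factor of epidermal differentiation, was at 0 to 3.42 CPM in letter E mini-colon libraries against 6.47, 6.81 and 8.45 CPM, and at 2.98 to 5.15 CPM in letter F against 29.9, 33.3 and 37.1 CPM (−2.92 ± 0.23, adjusted p = 9.69e-14). In vivo AKP libraries held 4.22 to 43.6 CPM of Dlx3 and controls 0 to 0.529 CPM. Lines were not shown to differ in their shift at Ngfr (adjusted p = 0.623) or Dlx3 (adjusted p = 0.218).

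Of the remaining lower genes, Gas7, an actin and membrane-bending protein, averaged 3.66 CPM in mini-colon AKP and 30.8 CPM in organoid AKP (−3.31 ± 0.13, adjusted p = 3.32e-25), and Flrt2, a membrane protein that binds UNC5 receptors, 7.42 and 34.3 CPM (−2.64 ± 0.13, adjusted p = 1.89e-20). Cnfn, a component of the cornified envelope of skin, had −3.32 ± 0.18, and Lypd3, a membrane-anchored protein of stratified epithelia, −3.63 ± 0.41. Dpp6, a potassium channel auxiliary subunit (−2.98 ± 0.22), Alox12, an arachidonate lipoxygenase (−2.45 ± 0.31), Tmem47, a claudin-like junction protein (−2.43 ± 0.17), and Def6, an exchange factor for small GTPases (−1.24 ± 0.19), were also below the organoid libraries of the same letter in every mini-colon library. Of these 8 genes, Def6 alone was not shown to differ between lines (adjusted p = 0.696).

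Further genes called in each of the 5 lines, chosen here after their values were seen, included several with small shifts. Farsb, a subunit of phenylalanyl-tRNA synthetase (0.45 ± 0.06), Pno1, a factor of small ribosomal subunit assembly (0.46 ± 0.06), Impdh1, an enzyme of guanine nucleotide synthesis (0.57 ± 0.08), Mrpl17, a mitochondrial ribosomal protein (0.36 ± 0.06), and Eif3g, a translation initiation subunit (0.32 ± 0.05), were higher. The shift ran from 0.31 to 0.40 over the lines at Mrpl17, from 0.26 to 0.39 at Eif3g and from 0.42 to 0.84 at Impdh1. The thrombin receptor F2r (1.83 ± 0.19) and Ulbp1, a ligand of the NKG2D receptor (1.16 ± 0.19), were higher too. Among lower genes were the keratins Krt6a (−2.23 ± 0.11) and Krt79 (−1.37 ± 0.12), Runx3, a transcription factor of gut epithelium (−1.14 ± 0.06), Epas1, which encodes the hypoxia-inducible factor HIF-2α (−0.93 ± 0.10), Col18a1, the precursor of endostatin (−0.79 ± 0.05), and Fgfrl1, a fibroblast growth factor receptor without a kinase domain (−1.16 ± 0.08).

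**Figure D3:**
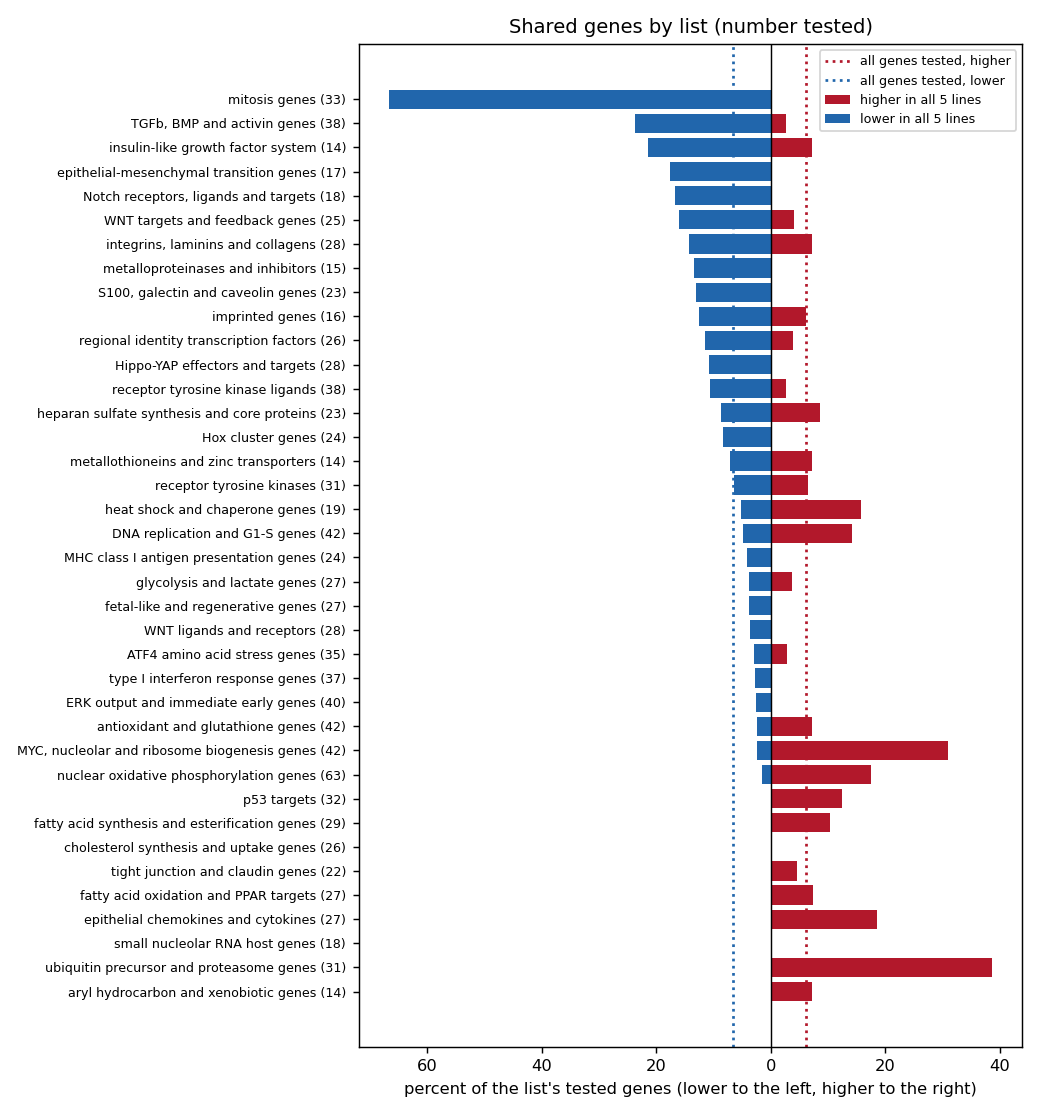
Share of each list's tested genes, with the number tested in brackets, that was lower in all 5 mini-colon lines (left of 0) or higher in all 5 (right of 0), in percent. Dotted lines give the shares over all genes tested, 6.58% lower and 6.26% higher, and mitosis genes reach furthest to the left and proteasome genes furthest to the right.

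The gene group with the most shared members was that of mitosis. Of 33 mitosis genes, 22 were lower in all 5 lines and 0 were higher, with a median of −0.26 over the list, against 0.00 over all genes. Counts for this and every later list stand beside the 6.58% lower and 6.26% higher of all genes. Their promoters often hold the cell cycle genes homology region, a TTTGAA element bound by the repressor complex DREAM and its activating counterpart, with CCAAT boxes upstream that are bound by NF-Y. Of the 4 mitosis genes called in every line, Cenpf, Hmmr and Nusap1 had a promoter entry, 250 bases before to 50 after the start, shown as the sequence behind the largest group (RefSeq promoters, located in GRCm39). Capitals mark TTTGAA and CCAAT on either strand (TTCAAA and ATTGG on the reverse), and the windows are written 5′ to 3′ along the gene. Cenpf lies on the minus strand at chr1:189420234-189420533, Hmmr on the minus strand at chr11:40624215-40624514 and Nusap1 on the plus strand at chr2:119448529-119448828.
Cenpf: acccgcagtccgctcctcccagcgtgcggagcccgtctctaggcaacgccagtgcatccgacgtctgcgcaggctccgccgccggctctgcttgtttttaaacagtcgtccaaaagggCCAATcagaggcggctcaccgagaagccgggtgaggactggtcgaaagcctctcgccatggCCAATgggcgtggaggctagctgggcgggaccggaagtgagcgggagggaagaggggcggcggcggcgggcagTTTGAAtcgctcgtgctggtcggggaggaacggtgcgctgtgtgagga
Hmmr: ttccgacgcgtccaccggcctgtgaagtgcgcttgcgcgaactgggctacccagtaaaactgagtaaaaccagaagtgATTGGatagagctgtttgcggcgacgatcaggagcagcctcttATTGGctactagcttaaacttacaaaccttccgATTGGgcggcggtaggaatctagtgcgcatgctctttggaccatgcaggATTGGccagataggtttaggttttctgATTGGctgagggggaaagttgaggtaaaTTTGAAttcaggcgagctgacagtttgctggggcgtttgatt
Nusap1: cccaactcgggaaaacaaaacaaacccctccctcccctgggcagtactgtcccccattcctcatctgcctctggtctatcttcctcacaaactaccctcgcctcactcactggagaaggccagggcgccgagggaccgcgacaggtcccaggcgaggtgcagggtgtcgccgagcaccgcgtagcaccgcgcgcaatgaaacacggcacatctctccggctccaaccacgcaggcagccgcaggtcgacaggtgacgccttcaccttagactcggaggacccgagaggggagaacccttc
TTTGAA began 2 bases after the start in Cenpf and 8 bases after it in Hmmr, with 2 and 5 CCAAT boxes before it. Neither motif was in the Nusap1 window.

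TTTGAA was in the windows of 20 of 28 mitosis genes that had an entry (71.4%), against 14.4% of 9737 tested genes with 1. It was in 15 of 20 that were shared and lower and in 5 of 8 that were not. CCAAT was in 75.0% of the mitosis windows and 43.4% of all, and both motifs were in 64.3% and 6.07%. Outside the mitosis list, 18.5% of the shared lower genes and 12.2% of the shared higher genes held TTTGAA. A match is a description of the letters and not a bound site.

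Tpx2, which loads Aurora A kinase onto the spindle, was at 197.3, 229.3 and 273.6 CPM in letter E mini-colon libraries against 285.7, 319.5 and 346.4 CPM in organoids, and at 235.3, 270.2 and 305.2 CPM in letter F against 336.1, 379.0 and 408.2 CPM. Nusap1, a microtubule bundling protein of the spindle, was at 201.3, 300.8 and 327.4 CPM in letter E mini-colon libraries against 375.5, 377.7 and 403.2 CPM, and at 252.9, 308.7 and 361.3 CPM in letter F against 398.4, 407.2 and 434.8 CPM. The libraries did not overlap within a letter at either gene. The mean differences were −0.46 ± 0.05 for Tpx2 (adjusted p = 1.18e-09) and −0.45 ± 0.05 for Nusap1 (adjusted p = 1.08e-10). Cenpf, a kinetochore protein (−0.57 ± 0.07, adjusted p = 3.29e-06), Cenpe, a kinetochore motor (−0.45 ± 0.05, adjusted p = 4.38e-10), Hmmr, a spindle protein (−0.50 ± 0.06, adjusted p = 5.26e-08), and Mki67, the proliferation antigen that coats mitotic chromosomes (−0.49 ± 0.07, adjusted p = 6.91e-06), shifted by the most or nearly so. Ube2c, a ubiquitin carrier of the anaphase-promoting complex, shifted the least among the 22 (−0.13 ± 0.04, adjusted p = 0.0303). Aspm, a spindle pole protein outside the list, was called in every line (−0.52 ± 0.06).

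The summed level of the 33 mitosis genes was 6369, 7887 and 8455 CPM in letter E mini-colon libraries against 9082, 9310 and 9888 CPM in organoids, and 7577, 7892 and 8051 CPM in letter F mini-colon libraries against 8714, 8940 and 10180 CPM. All 15 mini-colon libraries lay below the organoid libraries of their letter. Line #ii was the lowest, with a mean of 6643 CPM, while the other lines averaged 7876 to 8202 CPM. The sum was 7065 to 7301 CPM in in vivo AKP and 1072 to 1421 CPM in controls, so that all 33 genes were higher in in vivo AKP than in controls. Taken apart, letter E had 19 of 33 lower, letter F had 21, and 15 were lower in both, while 1 was higher in letter F. Over all genes, 275 of 11796 were lower in both letters. The median of the list was negative in each line, from −0.42 in #ii to −0.18 in #v.

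**Figure D4:**
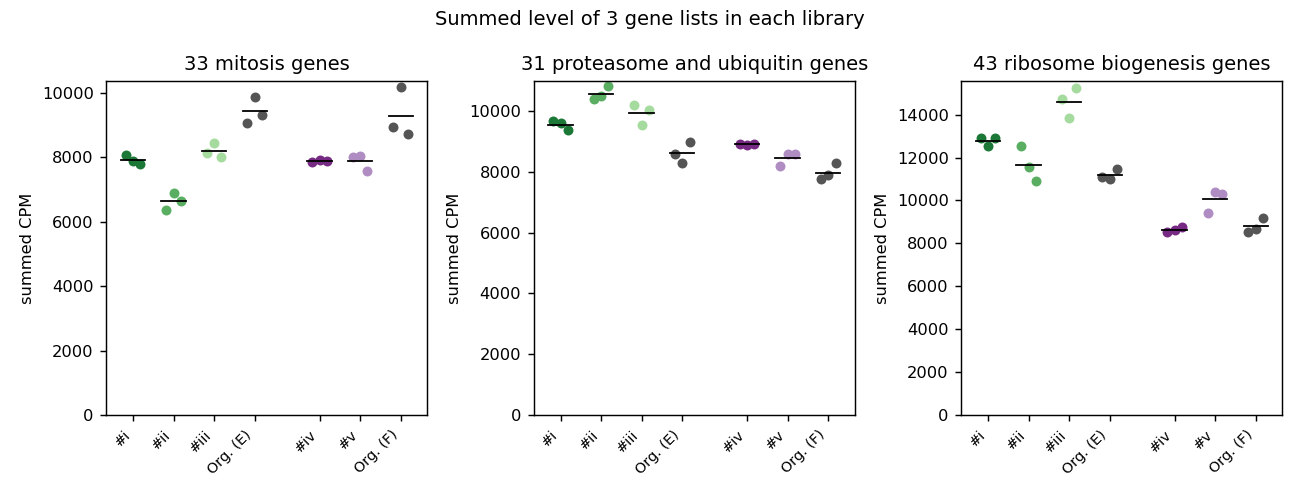
Summed CPM of the mitosis, proteasome and ubiquitin, and MYC and ribosome biogenesis lists in each library (points), with group means (lines), for mini-colon AKP #i to #v and organoid AKP of letters E and F. Mitosis sums of all 15 mini-colon libraries lie below the organoid libraries of their letter, while proteasome sums overlap in letter F and ribosome biogenesis sums in both letters.

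Genes of the step before mitosis did not follow. Of 42 DNA replication and G1-S genes, 6 were higher (Ccne1, Rrm2, Rrm1, Mcm5, Mcm2 and Ung) and 2 lower (Ccnd2 and E2f8), with a median of 0.08. Ccne1, which encodes cyclin E1 and drives entry into S phase, had 0.43 ± 0.09 (adjusted p = 0.000419), and Rrm2, a subunit of ribonucleotide reductase, 0.28 ± 0.07 (adjusted p = 0.00175). Ccnd2, which encodes cyclin D2, was at 494.6, 1368 and 1507 CPM in letter E mini-colon libraries against 1618, 1874 and 1877 CPM in organoids, and at 1065 to 1610 CPM in letter F against 1578 to 1674 CPM. Its mean difference of −0.62 ± 0.04 (adjusted p = 2.07e-16) was carried in large part by line #ii, at −1.83, whereas the other lines ran from −0.53 to −0.10. On this list 18 genes were higher in letter F and 2 in letter E, and 0 in both, against 194 of 11796 over all genes. Letter F, with fewer lines and deeper organoid libraries, also called more of all genes higher (12.5% against 7.59%). Without organoid AKP replicate 2, or with no scaling beyond the library total, 3 were shared and higher.

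Proteasome genes moved the other way from mitosis genes. The proteasome degrades proteins tagged with ubiquitin. Of 31 genes of its subunits and of ubiquitin precursors, 12 were higher in all 5 lines and 0 lower, with a median of 0.16. Psmc2, an ATPase of the regulatory particle, was at 323.3, 380.3 and 465.3 CPM in letter E mini-colon libraries against 216.4, 285.5 and 327.4 CPM in organoids, and at 210.9, 227.2 and 268.3 CPM in letter F against 181.5, 183.3 and 220.1 CPM, with a slight overlap in both letters (0.40 ± 0.06, adjusted p = 6.2e-07). Psmd2, a scaffold of the same particle, did not overlap (0.29 ± 0.05, adjusted p = 6.9e-06): it was at 340.3 to 448.9 CPM in letter E mini-colon libraries against 279.7 to 330.2 CPM, and at 342.1 to 369.3 CPM in letter F against 295.9 to 336.1 CPM. Psmd2 lies on chromosome 16, where line #ii was high across the chromosome, and its shift in that line was 0.53. Psmb4, a core subunit (0.31 ± 0.05), was among the others, and the shifts of the 12 ran from 0.16 to 0.40. The summed level was 9352 to 10821 CPM in letter E mini-colon libraries against 8293 to 8971 CPM, without overlap, and 8188 to 8895 CPM in letter F against 7756 to 8269 CPM, with overlap. Letter E alone had 11 of the 31 higher, letter F 12, and 8 were higher in both, against 194 of 11796 over all genes. Without organoid AKP replicate 2, 8 of the list were shared and higher.

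Ribosome production genes varied more between lines. Of 42 MYC, nucleolar and ribosome biogenesis genes, 13 were higher and 1, Mxi1, a MYC antagonist (−0.27 ± 0.09, adjusted p = 0.0191), was lower, with a median of 0.18. Nop10, a subunit of the complex that makes pseudouridine in ribosomal RNA, was at 244.4 to 312.6 CPM in letter E mini-colon libraries against 210.6, 233.4 and 239.2 CPM in organoids, and at 240.1 to 300.2 CPM in letter F against 144.9, 161.7 and 200.5 CPM, without overlap (0.40 ± 0.06, adjusted p = 4.82e-06). Nolc1, a nucleolar chaperone (0.30 ± 0.05), Nop2, a ribosomal RNA methyltransferase (0.36 ± 0.07), and Fbl, the methyltransferase fibrillarin (0.32 ± 0.08), were also higher. The list's summed level was 10925 to 15225 CPM in letter E mini-colon libraries against 11002 to 11474 CPM in organoids, and 8521 to 10391 CPM in letter F against 8510 to 9189 CPM, with overlap in both letters. Its median was 0.34 in line #iii and −0.03 in line #iv. Without line #iv 26 of the list were shared and higher, and without line #v 8. Letters E and F had 12 and 13 genes higher, of which 2 were the same, against 194 of 11796 over all genes.

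Of 63 nuclear genes of oxidative phosphorylation, the mitochondrial respiratory chain and ATP synthase, 11 were higher and 1, Ndufv2, lower (−0.21 ± 0.05, adjusted p = 0.00242), with a median of 0.12. Ndufs8 (0.34 ± 0.06, adjusted p = 1.41e-05) and Ndufb8 (0.29 ± 0.05, adjusted p = 1.84e-05), subunits of complex I, had the smallest p-values. Both lie on chromosome 19, where line #ii was high across the chromosome, and their shifts were 0.91 and 0.60 in that line. Without chromosomes 3, 16 and 19, 7 of the list were higher, as without organoid AKP replicate 5, while 17 were without organoid AKP replicate 6 and 19 without line #iii. Of 8 mitochondrially encoded genes, 0 were shared in either direction.

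Of 38 tested genes of the TGFβ, BMP and activin pathways, 9 were lower and 1 was higher. These secreted factors act through SMAD proteins and restrain growth of gut epithelium. The ligand Bmp2 was at 2.87, 6.58 and 10.5 CPM in letter E mini-colon libraries against 7.15, 9.44 and 15.9 CPM in organoids, with overlap, and at 10.2, 14.1 and 16.6 CPM in letter F against 28.0, 31.7 and 38.2 CPM (−1.08 ± 0.15, adjusted p = 1.95e-07). The activin chain Inhba (−0.45 ± 0.08) and the decoy receptor Bambi (−0.64 ± 0.11) were lower, and the chain Inhbb passed as lower (adjusted p = 0.0213) with 0 counts in line #iii and 7 in line #i against 8 in letter E organoids. Inhibitors of differentiation, direct targets of BMP signalling, were lower in all 4 cases: Id1 (−0.62 ± 0.09), Id2 (−0.51 ± 0.07), Id3 (−1.65 ± 0.23) and Id4 (−1.63 ± 0.36). Tgfbi, an extracellular matrix protein induced by TGFβ, passed as lower too (adjusted p = 0.000328), with 0 counts in line #ii against 10 in letter E organoids, but in letter F it had 0 counts in line #iv and 20 in line #v against 20 in organoids. The ligand Tgfb3 was higher (1.04 ± 0.21, adjusted p = 0.000166). The list's median, −0.04, was close to 0. In both letters 5 of its 35 genes tested were lower, against 275 of 11796 over all genes. Without organoid AKP replicate 2, 6 were shared and lower.

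Id2 had 139.8, 154.0 and 168.3 CPM in letter E mini-colon libraries against 176.9, 217.0 and 287.6 CPM in organoids, and 245.4, 319.5 and 394.1 CPM in letter F against 382.1, 422.4 and 494.9 CPM. The letter E libraries did not overlap and those of letter F did. In vivo AKP libraries ran higher, at 335.4 to 1145 CPM.

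Other signalling lists had few shared members, beside 6.26% higher and 6.58% lower over all genes. Notch1 (−1.08 ± 0.17, adjusted p = 2.99e-06) and Notch3 (−1.32 ± 0.26, adjusted p = 0.000127), receptors of neighbouring cells' ligands, and Numb, an inhibitor of Notch (−0.43 ± 0.13, adjusted p = 0.0132), were lower among 18 Notch genes, and 0 were higher. Of 25 WNT targets and feedback genes, Lef1 (−1.62 ± 0.18, adjusted p = 3.17e-09), Cd44 (−0.41 ± 0.05, adjusted p = 1.88e-08), Znrf3 (−0.31 ± 0.08, adjusted p = 0.00495) and Notum (−0.63 ± 0.18, adjusted p = 0.0137) were lower, and Tcf7 was higher (0.39 ± 0.10, adjusted p = 0.00481). Lef1 and Tcf7 encode factors that bind β-catenin, Cd44 is a hyaluronan receptor, and Znrf3 and Notum dampen WNT signals. Lef1 ran from −2.81 in line #i to −0.14 in line #v.

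Among 27 epithelial chemokines and cytokines, 5 were higher and 0 lower, with a median of 0.20. Cxcl1 (0.96 ± 0.21, adjusted p = 0.000531), Cxcl2 (1.09 ± 0.27, adjusted p = 0.00217) and Cxcl5 (0.96 ± 0.22, adjusted p = 0.000845) attract neutrophils, Csf1 (0.52 ± 0.13, adjusted p = 0.00193) is a macrophage growth factor and Tnfsf15 (0.77 ± 0.23, adjusted p = 0.0104) a cytokine of the tumour necrosis factor family. Their levels were low: Cxcl1 was at 2.45 to 11.6 CPM in letter E mini-colon libraries against 1.30 to 3.77 CPM in organoids, and at 4.78 to 7.83 CPM in letter F against 3.28 to 4.63 CPM. Letters E and F had 5 and 6 higher genes, of which 1 was the same, among 22 tested in both. Over all genes, 194 of 11796 were higher in both letters. Of this list 3 were shared and higher without replicate 2 of line #iii and 8 without line #v.

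Of 32 p53 targets, 4 were higher (Eda2r, Btg2, Dglucy and Sulf2) and 0 lower, beside 6.26% higher and 6.58% lower over all genes. Eda2r, a receptor of the tumour necrosis factor family, had 220 counts in line #iii against 0 in letter E organoids, at least 59.7-fold by the limit over the line, and 4 and 6 counts in lines #i and #ii. In letter F it had 1 count in line #iv and 9 in line #v against 1 in organoids, and lines #iii and #v were called alone (adjusted p = 5.83e-14 and 0.0431). Dglucy was called alone in line #iii, with a shift of 5.49 there and of 0.31 to 1.34 in the others. Of 26 cholesterol synthesis and uptake genes, 0 were shared in either direction at this threshold, where the line medians ran from −0.36 in #ii to 0.36 in #v. With 1 value per line, 0 genes of the mitosis, proteasome, ribosome biogenesis, oxidative phosphorylation, TGFβ or chemokine lists passed. Without the letter as a block, 21 mitosis genes were shared and lower, and 5 proteasome, 4 oxidative phosphorylation and 3 ribosome biogenesis genes shared and higher. Type I interferon response genes had 0 higher and 1 lower of 37, and fetal-like and regenerative genes 0 higher and 1 lower (Krt6a) of 27.

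**Figure D5:**
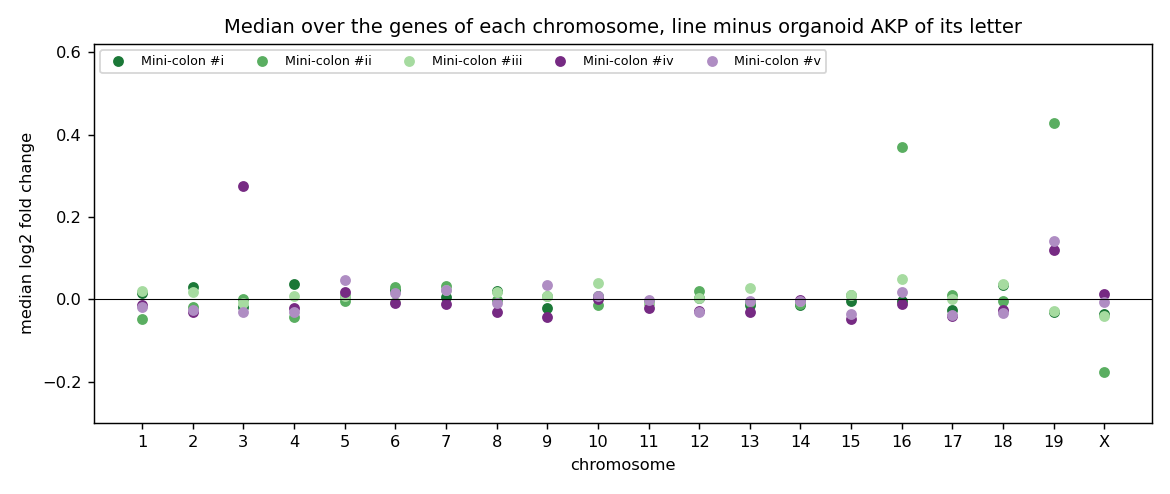
Median log2 fold change over the tested genes of each chromosome (x axis) in each mini-colon AKP line, against organoid AKP of its letter. Line #ii stands at 0.43 on chromosome 19, 0.37 on chromosome 16 and −0.18 on the X chromosome, and line #iv at 0.27 on chromosome 3.

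Shared genes were spread unevenly over chromosomes. Chromosome 19 had 11.6% of its 438 tested genes shared and higher and 2.97% lower, chromosome 3 had 8.89% and 3.28%, and chromosome 16 had 8.12% and 4.06%. On chromosome 19 the median over genes was 0.43 in line #ii, 0.14 in #v and 0.12 in #iv, but −0.03 in #i and #iii. The median was 0.37 on chromosome 16 in line #ii and 0.27 on chromosome 3 in line #iv, and −0.18 on the X chromosome in line #ii. Every other median by line and chromosome lay between −0.05 and 0.05. With the genes of chromosomes 3, 16 and 19 left out, 653 were shared and higher and 783 lower. In that count 20 mitosis genes were lower and 10 proteasome genes higher.

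In vivo AKP lines and controls gave a comparison that used none of the libraries above. There, 4980 of 13033 genes were higher in in vivo AKP than in controls (38.2%) and 4672 were lower (35.8%). Of the genes shared and higher in mini-colon lines that were tested in it, 51.9% were higher in in vivo AKP and 29.9% lower. Of those shared and lower, 44.1% were higher and 35.1% lower. The shared higher genes were also more abundant, with a median of 57.8 CPM over the 21 libraries against 23.3 CPM for all genes and 21.9 CPM for shared lower genes, and the part of abundance in these shares was not tested. Proteasome genes were higher in in vivo AKP than in controls at 28 of 31, ribosome biogenesis genes at 35 of 42 and mitosis genes at 33 of 33. The baseline there was the controls and not organoid AKP. Summed mitosis genes were at 1072 to 1421 CPM in controls and 7065 to 7301 CPM in in vivo AKP. The in vivo AKP sums thus lay below the 8714 to 10180 CPM of organoid AKP, as those of mini-colon lines did within each letter.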

How the data were processed

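QuantSeq 3′ mRNA libraries were made from RNA of organoid lines grown from mouse colon. The deposited files hold raw read counts, which the authors obtained by aligning reads with STAR to GRCm39 and counting them per Ensembl gene, and the annotation and the counting tool are not given in the sources used here. Per the labels, the submitters' processing notes also name R 4.1.2, edgeR and limma. Symbols came from GENCODE M39 (31674 of 32285 identifiers). The 611 without a symbol held 6.85% of all counts (1 of them 6.77% of all counts), and they stayed in the fits.

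Counts were fitted with edgeR 4.0.16 (R 4.3.3, quasi-likelihood, robust, TMM) at genes of at least 1 CPM in at least 3 libraries. Each line and each letter of organoid AKP had its own mean, and the mean of the 5 differences was tested, with Benjamini-Hochberg adjustment over all genes at 0.05. Differences between lines were tested jointly. In vivo AKP against controls was a separate fit with the letter as a block. Levels were scaled over all 33 libraries. The script was tested on simulated counts. Alternatives were limma 3.58.1, DESeq2 1.42.0, other scalings and filters, each letter, line or library left out, and lines as units.

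Named genes were the 12 in each direction with the largest smallest-of-5 difference among those without overlap and with at least 5 CPM, up to 3 members of each list by p, and the engineered genes, leaving out predicted genes and pseudogenes. Many of these enter the text only in counts, and some are not reported here. A further few, called in each line, were chosen after their values were seen. Members and lists were chosen with earlier results of these data known. Library depth ran from 2438672 to 8256526 counts (median 3748649), and intervals cover counting error only. RefSeq promoters were matched to GRCm39.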

Additional observations from a re-analysis of the deposited data

Results flagged for a closer look

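Groups of 6 libraries (organoid AKP, in vivo AKP or controls) were searched for a library far from the others, and 4 of 87 groups had 1. Each group pools letters E and F, which differed in organoid AKP. The 1 in 20 that chance gives in a uniform group is thus no guide here, and a library far from its own letter can be missed. Alox12 was at 2.06 CPM in in vivo AKP replicate 4, where the next library had 0.80 CPM. Flrt2 was at 1.34 CPM in in vivo AKP replicate 2 (next 0.384 CPM), Itga2 at 12.9 CPM in in vivo AKP replicate 6 (next 6.33 CPM) and Tmem47 at 1.05 CPM in control replicate 2 (next 0.176 CPM). None of these libraries entered the comparison of mini-colon with organoid AKP. Mini-colon libraries were not searched. Without organoid AKP replicate 2, shared genes numbered 575 higher and 635 lower, against 793 and 833 with all libraries.

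The 24 genes named by the rule on the smallest of the 5 differences all moved the same way in every line, which the rule required. Of these, 19 did so by different amounts, by an F test of the 5 differences in edgeR. Among the higher genes, the adjusted p of the difference between lines was 8.79e-15 for Slc7a3, 2.49e-09 for Slc39a4, 8.37e-09 for Sema7a, 4.68e-08 for Akr1b8, 7.08e-06 for Auts2, 7.3e-05 for Abcb1b, 0.000156 for Myl7, 0.000526 for Igfbp4, 0.000923 for Casp4, 0.00417 for Cacna2d1 and 0.00644 for Itga2. The log2 fold change was largest in line #ii for Slc7a3 (5.26), in line #v for Sema7a (3.37) and Igfbp4 (3.38), and in line #iii for Abcb1b (2.64).

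Among the lower genes it was 1.9e-09 for Gas7, 8.59e-09 for Flrt2, 1.52e-08 for Cnfn, 1.34e-07 for Dpp6, 2.41e-05 for Rhox5, 3.07e-05 for Tmem47, 0.01 for Lypd3 and 0.0117 for Alox12. Gas7, Flrt2, Cnfn and Lypd3 were furthest below organoid AKP in line #iv, and Tmem47 in line #ii. Rhox5 had larger shifts in lines #iv (−7.51) and #v (−7.65) than in lines #i to #iii (−5.13 to −3.78), and its level in letter F organoids was also above that in letter E organoids.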

How the results depend on the processing

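Shared genes numbered 518 higher without the letter as a block, 1514 higher and 1507 lower in letter F alone, 35 higher and 40 lower where every line had to reach 1 log2 unit, and 0 higher and 4 lower with 1 value per line. In the last case fewer units enter the test. The higher share of shared genes was 48.8%, 39.2% without the letter as a block and 42.2% with no scaling beyond the library total. Leaving out 1 library gave 575 to 840 shared higher and 635 to 877 shared lower genes, 19 to 34 higher and 36 to 56 lower genes called in each line, 5212 to 5938 genes at which lines differed, and 4820 to 4916 higher and 4471 to 4573 lower genes in in vivo AKP. The other alternatives kept these counts within 1.5 times, and other scalings moved the median of all genes by less than 0.1.

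Replicate numbers did not pair the libraries. Deviations of same-numbered libraries correlated at a median of 0.0081 (45 pairs) and of others at −0.0015 (144 pairs). With the replicate block, 814 higher and 849 lower genes were shared.

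Of 4586 values of named genes under alternatives, 358 no longer met the shared call, 106 of them with a library left out, and 0 changed sign. Of the 358, 115 came with 1 value per line and 27 belonged to Trp53. Depth limits genes under a few CPM, where a line held 0 to 3 counts. Counts of list members under alternatives, other scalings of the count without overlap and the count without chromosomes 3, 16 and 19 were chosen after seeing the data.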

Other observations

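Several gene groups with few shared members held single genes with clear shifts. Of 23 S100, galectin and caveolin genes, 3 were lower in all 5 lines and 0 higher. Lgals1, which encodes the secreted lectin galectin-1, was at 37.8, 49.7 and 57.2 CPM (lowest, median and highest) in letter E mini-colon libraries against 105.3, 110.3 and 122.5 CPM in organoids, and at 59.0, 93.4 and 138.2 CPM in letter F against 147.5, 148.4 and 152.8 CPM (−1.06 ± 0.06 SE, adjusted p = 1.38e-19, edgeR). The libraries did not overlap within either letter. S100a16, a calcium-binding protein (−0.49 ± 0.05), and Cavin3, a coat protein of caveolae (−0.39 ± 0.08), were the others. Of 17 epithelial-mesenchymal transition genes, 3 were lower, among them Tpm2, a tropomyosin (−1.46 ± 0.10, adjusted p = 3.38e-16), and Ovol1, a transcription factor of epithelial identity (−0.56 ± 0.11).

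Of 19 heat shock and chaperone genes, the mitochondrial chaperonins Hspe1 (0.33 ± 0.06) and Hspd1 (0.21 ± 0.05) and the cytosolic chaperone Hsp90aa1 (0.22 ± 0.05) were higher, and Hspb1, a small heat shock protein, was lower (−0.65 ± 0.23, adjusted p = 0.038). Of 24 Hox cluster genes, Hoxb8 (−0.65 ± 0.10) and Hoxb5 (−0.50 ± 0.13) were lower and 0 higher. Of 28 Hippo-YAP effectors and targets, the DNA-binding factors Tead2 (−0.45 ± 0.08) and Tead4 (−0.32 ± 0.10) and the kinase Nuak2 (−0.41 ± 0.11) were lower and 0 higher, beside a list median of 0.04. Of 29 fatty acid synthesis and esterification genes, Me1, malic enzyme (0.44 ± 0.07), Pnpla2, a triglyceride lipase (0.26 ± 0.07), and Dgat2, which completes triglycerides (0.41 ± 0.14), were higher and 0 lower. These shares stand beside 6.26% higher and 6.58% lower over all genes.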
